A study of Drosophila melanogaster with 3 samples.

Results

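The genes described here are the nuclear tRNA genes of Drosophila melanogaster, read in peak lists of a nucleolar protein. Every gene of Ensembl release 115 on the dm6 assembly whose symbol begins with tRNA: and that lies on a nuclear chromosome was taken, which gave 295 of 18277 annotated genes. Of these, 290 are annotated as tRNA and 5 as pseudogenes. The peaks come from chromatin immunoprecipitation and sequencing (ChIP-seq) of CG7839, also called Noc1, which carries GFP at its C-terminus in a stable transgenic line. Whole embryos of both sexes aged 0 to 24 h were used, with an antibody against GFP and sonicated chromatin. There are 3 biological replicates in 1 group, all with the same fusion, and no group without it was analysed here. Nothing in the labels says whether the replicates are separate embryo collections, so a spread between them may be technical. Whole embryos mix many cell types and ages, and a peak list holds no expression by which the tissue could be checked.

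Transfer RNAs carry amino acids to the ribosome. Their genes are short and are transcribed by RNA polymerase III, the enzyme that also makes 5S ribosomal RNA. The promoter lies inside the gene: the factor TFIIIC binds a box A and a box B within the transcribed sequence and brings TFIIIB to the DNA just upstream of the start, and a run of T residues after the gene ends transcription. Noc1 is known from yeast as an assembly factor of the large ribosomal subunit.

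The deposited data are lists of peak summits, the base that each peak's record gives as its summit. Each replicate has a list of 30000 summits, as has the pooled list, and a list filtered on the irreproducible discovery rate (the IDR list) holds 8188. The IDR summits are the 8188 pooled summits of largest signal value. Peaks are given here by their rank within a list by the authors' signal value, where rank 1 is the strongest. The depth of sequencing is unknown from these lists. All lists were made against 1 common control, which was not analysed here. Most peaks of the replicate lists have 1 fixed width, with the summit at its middle to within 1 base. This width was 404, 404 and 410 bp in replicates 1, 2 and 3 and held for 84.7%, 83.7% and 88.3% of peaks. In the pooled list 77.5% of peaks and in the IDR list 23.2% were 416 bp wide. The sources used here do not say how such a peak was placed, so short distances are to be read with that limit. A tRNA gene was counted as having a summit where one lay within 500 bp of its start.

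The 3 genes with the strongest IDR summit nearest to a tRNA start, and 3 with a summit in or near the gene, are shown with their own sequence from the RefSeq dm6 assembly. Capitals mark the box A core (TNGCNNAG) and the box B core (GTTCNANNC) where a search found those letters.
tRNA:Tyr-GTA-1-8, chr3R:8669081-8669174, minus strand: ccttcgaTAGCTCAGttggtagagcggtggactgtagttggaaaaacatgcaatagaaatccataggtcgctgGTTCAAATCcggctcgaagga
tRNA:Leu-TAA-2-1, chr3R:24112964-24113047, plus strand: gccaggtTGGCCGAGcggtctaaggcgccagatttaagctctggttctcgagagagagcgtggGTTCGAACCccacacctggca
tRNA:Gln-TTG-2-1, chrX:3427452-3427523, minus strand: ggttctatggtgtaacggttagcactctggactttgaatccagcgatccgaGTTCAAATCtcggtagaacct
tRNA:Asp-GTC-1-5, chr2L:8541761-8541832, plus strand: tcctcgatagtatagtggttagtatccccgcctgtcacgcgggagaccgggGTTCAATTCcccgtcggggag
tRNA:Ile-TAT-1-1, chr3L:769503-769600, plus strand: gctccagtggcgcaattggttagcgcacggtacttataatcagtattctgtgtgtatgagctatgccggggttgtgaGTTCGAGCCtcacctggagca
tRNA:Cys-GCA-1-2, chr3L:3095991-3096062, plus strand: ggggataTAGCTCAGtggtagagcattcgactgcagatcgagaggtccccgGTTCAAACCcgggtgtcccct
The Tyr gene is 94 bases long and holds an intron, and the Asp sequence is shared by 12 genes. The box B core stands near the end of each gene, and the search found the exact box A core in 3 of these 6.

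The next 4 sequences are the 101 bases around the IDR summits nearest to 4 of these genes. Capitals mark the 11 bases centred on the summit.
Summit at tRNA:Tyr-GTA-1-8, chr3R:8669317-8669417, plus strand: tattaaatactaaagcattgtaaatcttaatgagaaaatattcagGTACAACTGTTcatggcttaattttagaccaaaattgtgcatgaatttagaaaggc
Summit at tRNA:Leu-TAA-2-1, chr3R:24112703-24112803, plus strand: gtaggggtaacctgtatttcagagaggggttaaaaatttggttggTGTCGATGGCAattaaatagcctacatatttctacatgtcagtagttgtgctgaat
Summit at tRNA:Gln-TTG-2-1, chrX:3427722-3427822, plus strand: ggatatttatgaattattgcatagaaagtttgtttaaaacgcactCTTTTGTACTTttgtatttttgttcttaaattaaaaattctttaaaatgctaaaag
Summit at tRNA:Asp-GTC-1-5, chr2L:8541735-8541835, plus strand: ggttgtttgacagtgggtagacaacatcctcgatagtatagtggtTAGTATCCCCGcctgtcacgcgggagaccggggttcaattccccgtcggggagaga
The Tyr, Leu and Gln windows lie upstream of the gene and hold none of its bases. The Asp window, by contrast, contains the gene, and its summit is 24 bp past the gene start.

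Across all members, the exact box A core was found in 147 of 295 genes (49.8%) and the box B core in 274 (92.9%), read on the gene's strand. The same letters occur in the first 73 bases of 5.83% and 1.46% of the 17982 other annotated genes. A run of TTTT stands within the 60 bases after the gene in 295 of 295 members, against 30.0% of other genes at the same distance. A match describes the letters only and does not show that a factor binds.

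In each whole replicate list, more tRNA genes had a Noc1-GFP summit than had none. The count was 171 of 295 genes in replicate 1 (58.0%), 208 in replicate 2 (70.5%) and 191 in replicate 3 (64.7%), a mean of 64.4% ± 6.28 (SD, n = 3). Among all 18277 annotated genes, read the same way, 33.3%, 38.4% and 40.6% had a summit in these lists. In the pooled list the count was 186 tRNA genes (63.1%), against 33.7% of all genes. The tRNA share thus exceeded the share of the other genes by 25.1, 32.6 and 24.5 percentage points, 27.4 ± 4.53 on average (SD, n = 3), in 3 of 3 replicates. The exact two-sided sign-flip permutation p was 0.25, the smallest that 3 replicates can give, so this design cannot pass 0.05. In the IDR list, however, 42 tRNA genes had a summit, or 14.2% (Wilson 95% interval 10.7 to 18.7), against 17.7% of all genes. Intervals cover counting error only, and neighbouring genes can share a summit.

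**Figure D1:**
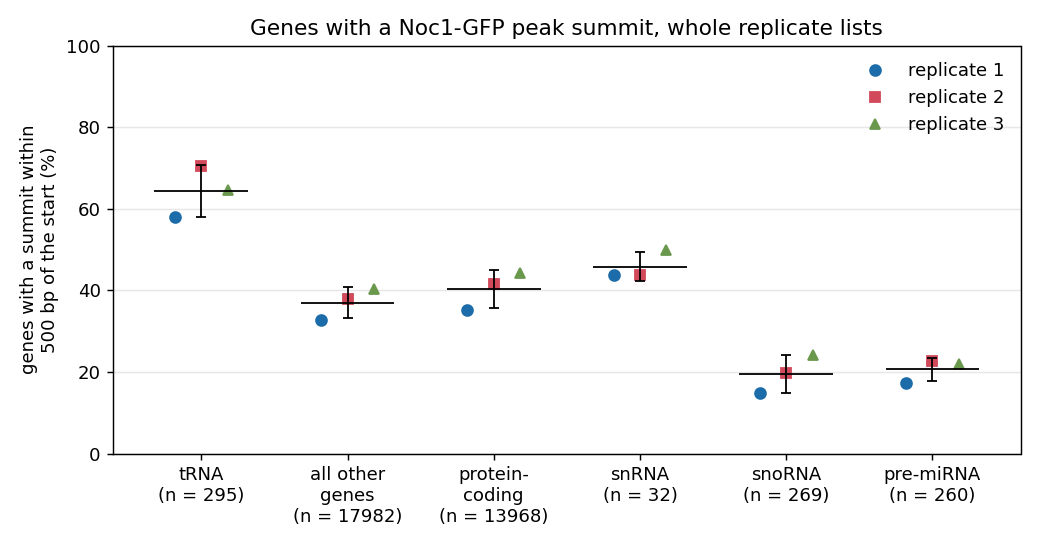
Percent of genes with a summit within 500 bp of the gene start in each whole replicate list, by gene class, with 1 point per replicate, a bar at the mean and error bars of 1 SD over 3 replicates. The tRNA genes sit between 58.0% and 70.5%, above every point of the other classes.

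The tRNA genes were also set beside other short non-coding genes. Of 32 genes for small nuclear RNAs, the RNA parts of the spliceosome, 45.8% ± 3.61 had a summit. Among 269 genes for small nucleolar RNAs, which guide modification of ribosomal RNA, the share was 19.6% ± 4.65, and among 260 microRNA precursor genes it was 20.6% ± 2.91. The tRNA share was higher in 3 of 3 replicates for each class, by 18.6 ± 7.09, 44.8 ± 5.33 and 43.8 ± 3.67 percentage points (SD, n = 3). The exact sign-flip permutation p was 0.25 for each and 0.25 after Benjamini-Hochberg adjustment over the 3 classes.

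The tRNA summits were more frequent among peaks of middle rank than among the 4094 strongest. Among the 4094 strongest peaks, 0.122%, 0.293% and 0.269% lay within 500 bp of a tRNA start in replicates 1, 2 and 3. At ranks 8189 to 16376 these shares were 0.769%, 0.867% and 0.806%, and at ranks 16377 to 30000 they were 0.492%, 0.484% and 0.455%. All 3 replicates were therefore lowest at the top of the list. At ranks 4095 to 8188 the replicates were furthest apart, with 0.366%, 0.953% and 0.586%. Over the 8188 strongest peaks the shares were 0.244%, 0.623% and 0.427%, against 0.596%, 0.628% and 0.587% of the remaining peaks. The remainder was higher in 3 of 3 replicates, but in replicate 2 by 0.00523 percentage points (n = 3, exact sign-flip permutation p = 0.25). With only the 8188 strongest peaks of each replicate, 8.81%, 25.4% and 19.3% of tRNA genes had a summit, against 17.6%, 19.4% and 20.7% of other genes. The difference then had no common direction, at -8.75, 5.98 and -1.38 percentage points (mean -1.38 ± 7.37, n = 3, exact sign-flip permutation p = 0.75). The median tRNA summit outranked 54.0% ± 4.09 of its list (SD, n = 3), and the strongest had ranks 212, 120 and 147.

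**Figure D2:**
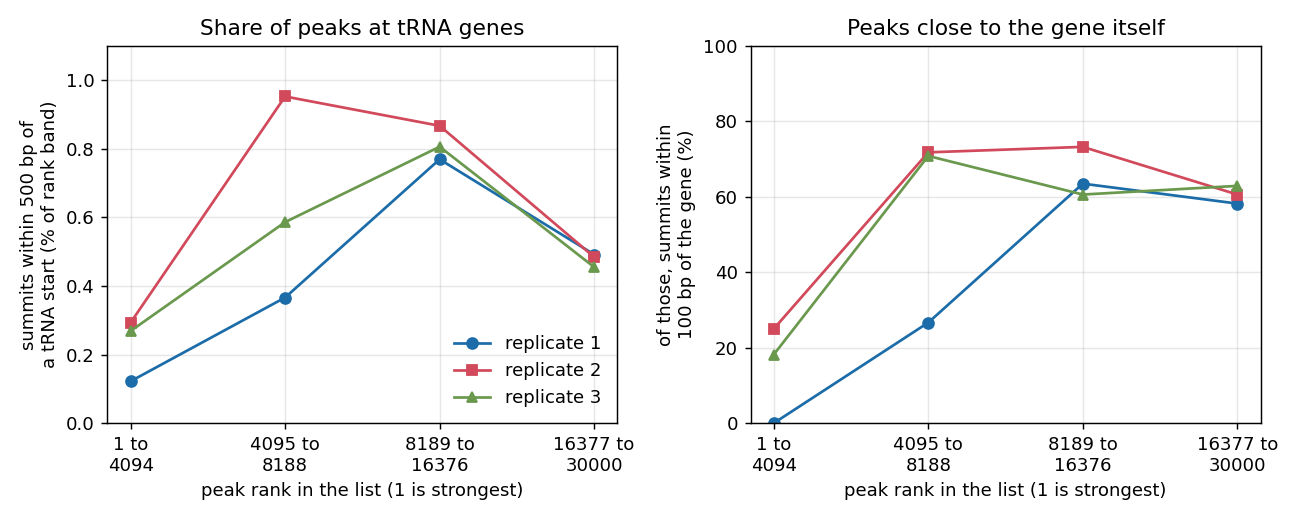
Left, the percent of all peaks in each band of peak rank whose summit lies within 500 bp of a tRNA start. Right, the percent of those summits that lie within 100 bp of the tRNA gene itself, each by replicate. The left curves are lowest in the band of ranks 1 to 4094 in all 3 replicates, and the right values there are 0%, 25% and 18.2%.

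Summits gathered on the tRNA gene itself. There were 150, 188 and 163 distinct summits within 500 bp of a tRNA start in replicates 1, 2 and 3, or 0.557% of a list on average, and 178 in the pooled list. The densest bin was the 100 bp from the start onward, which spans the median gene of 73 bp, with 16.7 ± 1.19 summits per 100 genes (SD, n = 3). The 100 bp upstream held 10.6 ± 3.08 and the bin from 100 to 200 bp downstream 8.02 ± 3.48. Between 500 and 1000 bp away on either side the mean was 2.24 ± 0.0339 per bin. Around protein-coding starts the summits lay further upstream, with 8.34 ± 1.59 per 100 genes in the 100 bp before the start, 8.28 ± 0.602 in the 100 bp before that, and 1.57 ± 0.0837 in the outer bins. Of the tRNA summits, 42.5% ± 1.95 were upstream of the gene start and 60.3% ± 5.05 were within 100 bp of the gene (SD, n = 3). The summit was inside the gene in 39, 41 and 40 cases, or 24.1% ± 2.13. Of the tRNA summits 142 of 150, 173 of 188 and 155 of 163 were the middle of a peak of the fixed width, and these included 39 of 39, 40 of 41 and 40 of 40 of the summits inside a gene. Among the tRNA summits of other widths, 0%, 13.3% and 0% lay within 100 bp of the gene, against 58.5%, 69.9% and 63.2% of those of fixed width.

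**Figure D3:**
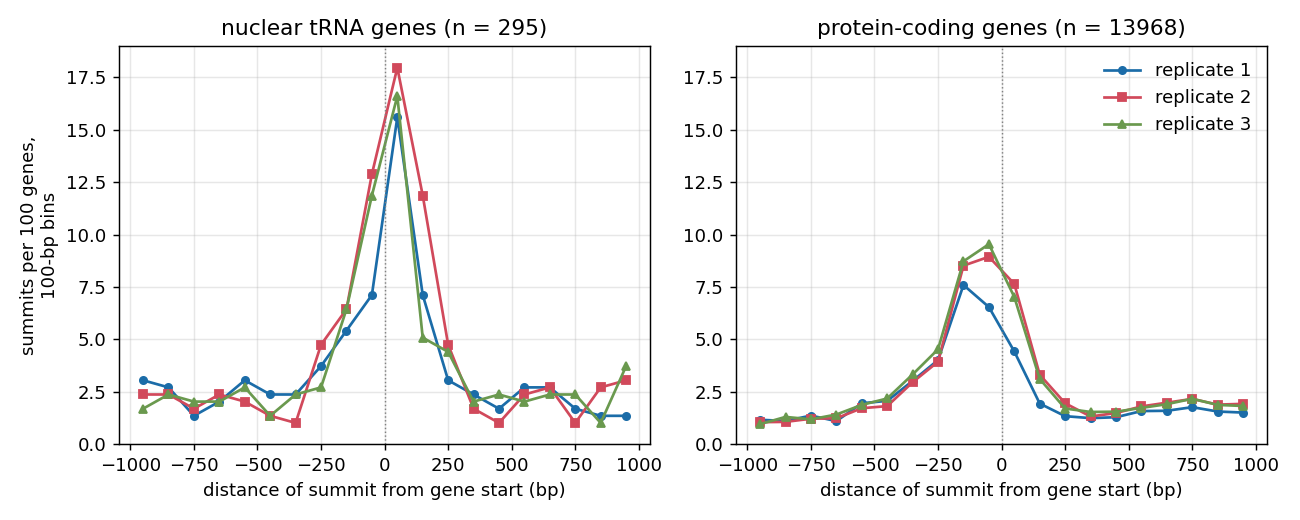
Summits per 100 genes in bins of 100 bp by distance from the gene start in the direction of transcription, for tRNA genes (left) and protein-coding genes (right), with 1 line per replicate. The tRNA lines peak in the bin from 0 to 100 bp in all 3 replicates, and the protein-coding lines peak upstream of the start.

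Fewer of the strongest peaks lay within 100 bp of the gene. Among ranks 1 to 4094, none of 5, 3 of 12 and 2 of 11 tRNA summits lay within 100 bp of the gene in replicates 1, 2 and 3. At ranks 8189 to 16376 the shares were 63.5%, 73.2% and 60.6%. Of the 27 IDR summits, 9 lay within 100 bp of the gene and 1 lay inside it. Only 12 of these 27 came from peaks of the fixed width of 416 bp, against 159 of 178 in the pooled list. Within 100 bp lay 58.3% of the IDR summits of fixed width and 13.3% of the others, and in the pooled list 66.0% and 15.8%. The part of peak width in the contrast by rank was not tested. The 8188 strongest peaks of each replicate gave a mean of 45.0% ± 21.9 within 100 bp, and the remaining peaks 63.2% ± 3.44. The remainder was higher in 3 of 3 replicates, by 40.8, 6.37 and 7.43 percentage points (n = 3, exact sign-flip permutation p = 0.25, the smallest possible). The median distance to the gene had no common direction, at 177.5, 48 and 90 bp for the strongest and 47.5, 52 and 57.5 bp for the remainder (exact sign-flip permutation p = 0.5, n = 3).

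A box B core, on either strand, was present within 100 bp of 48%, 52.7% and 49.1% of tRNA summits in replicates 1, 2 and 3. Among all summits of those lists the share was 6.06%, 6.22% and 5.96%. Near IDR summits it was 10 of 27 (37.0%) at tRNA genes, against 6.25% of all 8188. Because box B is part of the gene, this restates how near the summits lie to it. Of elements known from fly promoters, the DRE (TATCGATA, bound by DREF) was in 1 of the 27 windows (3.70%, against 2.08% of all IDR windows), and GAGAG, the core bound by GAGA factor, was in 9 (33.3%, against 19.1%). The median GC content was 36.8% in the 27 windows and 32.8% in all IDR windows, and its part in these shares was not tested.

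Few tRNA summits had a protein-coding start nearer than the tRNA start. With the 500 bp limit this could occur only where such a start lay within 1000 bp of the tRNA start, as at 80 of 295 genes. The spacing of genes therefore bounds this share, and no share expected from spacing was computed. Such summits numbered 8, 6 and 8 in replicates 1, 2 and 3, or 4.48% ± 1.13 (SD, n = 3), and for 94.1% ± 0.969 a tRNA start was the nearest start of any gene. In the IDR list there were 4 of 27 (14.8%). In ranks 1 to 4094 a protein-coding start was nearer for 2 of 5, 5 of 12 and 4 of 11 tRNA summits, in ranks 4095 to 8188 for 2 of 15, 0 of 39 and 0 of 24, and in ranks 8189 to 16376 for 3 of 63, 0 of 71 and 4 of 66. Summits also occurred away from protein-coding starts: tRNA genes over 1000 bp from any such start had one in 63.1% ± 5.10 of 215 cases, against 67.9% ± 11.2 of the 80 others. The differences were -4.07, 6.16 and 12.4 percentage points (n = 3, exact sign-flip permutation p = 0.5). The median distance from a tRNA gene to a protein-coding start was 2936 bp. Genes inside a protein-coding gene had a summit in 59.9% of 137 cases and those outside in 68.4% of 158.

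The strongest IDR summit at a tRNA gene was that of tRNA:Tyr-GTA-1-8, which has rank 154 in the IDR list and ranks 212, 120 and 147 in the replicates. It lies 193 bp upstream of the gene in an intron, and the nearest protein-coding start, of CG8036, is 251 bp away. The summit at tRNA:Leu-TAA-2-1 has IDR rank 1500 and replicate ranks 1978, 1258 and 1491. It lies 211 bp upstream of this single gene, and the start of CG13605 is 364 bp away. At tRNA:Gln-TTG-2-1, within CG12535, the summit has IDR rank 1661 and replicate ranks 2277, 1497 and 1248. This one lies 249 bp upstream, and the nearest protein-coding start is 8035 bp away. All 3 are thus upstream, off the gene body, and of like rank in every replicate.

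A further 4 of the 12 strongest were nearer to a protein-coding start. The summit of IDR rank 1704 lies 491 bp past the start of tRNA:Val-CAC-2-5, just inside the 500 bp limit, and 408 bp from Naam, the nicotinamidase gene. Rank 1877 lies 280 bp past the start of tRNA:Phe-GAA-1-2 but 25 bp from RpL17, which encodes a protein of the large ribosomal subunit. Rank 2918 lies 304 bp past tRNA:Asp-GTC-1-5 and 82 bp from Sema1a, a guidance gene of the semaphorin family. Rank 3988 lies 220 bp upstream of tRNA:Trp-CCA-2-2 and 67 bp from CG30122, and only replicate 2 has a summit within 100 bp of it, at rank 4040.

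The other 5 lay nearer to the tRNA gene than to a protein-coding start. At tRNA:Glu-TTC-1-5 the summit of IDR rank 2597 is 130 bp beyond the end of the gene and has replicate ranks 4691, 1736 and 2083. At tRNA:His-GTG-1-3 (IDR rank 2670, 108 bp upstream) and tRNA:Ser-AGA-2-4 (rank 4658, 131 bp past the start), replicate 1 has no summit within 100 bp, while replicates 2 and 3 have ranks 2265 and 2720, and 3154 and 3626. tRNA:Asp-GTC-1-5 has a second IDR summit, of rank 3140, and it alone of the 27 lies inside its gene. Replicates 1 and 2 have a summit within 100 bp of it, at ranks 4663 and 3035, and replicate 3 has none. Only the summit of replicate 1 lies inside the gene. tRNA:Thr-AGT-1-4 completes the 12 with rank 4609, 64 bp upstream, and replicate ranks 5467, 4236 and 4136.

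Of the summits inside a tRNA gene, 2 of 39, 10 of 41 and 5 of 40 were among the 8188 strongest peaks of replicates 1, 2 and 3. In all, 91 tRNA genes had a summit inside the gene in at least 1 replicate, and 3 had one in all 3. tRNA:Ile-TAT-1-1 had it at ranks 13404, 16584 and 6938 in replicates 1, 2 and 3. For tRNA:Glu-CTC-2-1 the ranks were 19227, 8336 and 15805, and for tRNA:Lys-CTT-1-6 they were 24291, 13501 and 29807. None of these 3 has an IDR summit inside the gene, and their ranks spread widely between replicates.

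A summit was present in all 3 replicates at 141 genes (47.8%), in 2 at 55, in 1 at 37 and in none at 62 (21.0%). Among other genes, 24.0% had one in all 3 and 49.7% in none. Since the share in each list is higher for tRNA genes, a higher share in all 3 lists follows in part from that, and recurrence beyond it was not tested. By position, 38%, 29.8% and 30.1% of the tRNA summits of replicates 1, 2 and 3 had a summit within 100 bp in both other replicates, or 32.6% ± 4.66 (SD, n = 3). Over all summits the share was 37.1% ± 0.205, and the differences had no common direction (exact sign-flip permutation p = 0.5). Among summits below the strongest 8188, it was 26.6% ± 4.33 for tRNA summits and 20.2% ± 0.645 for all, higher in 3 of 3 replicates (difference 6.39 ± 4.88, n = 3, exact sign-flip permutation p = 0.25). These 2 sets were not matched for rank. Ranks 8189 to 16376 held 63 of 130, 71 of 137 and 66 of 128 of the weaker tRNA summits, against 8188 of 21812 of all. The part of rank in this difference was not tested. The lists also share a control, whose part in the overlap was not tested.

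Clustered tRNA genes had a summit more often than single ones. A gene was called clustered where the start of another nuclear tRNA gene lay within 1000 bp, which held for 188 genes and left 107 single. Of clustered genes 124, 157 and 145 had a summit in replicates 1, 2 and 3 (75.5% ± 8.88), and of single genes 47, 51 and 46 (44.9% ± 2.47). Single genes, at 43.9%, 47.7% and 43.0%, thus lay closer than clustered genes to the 33.3%, 38.4% and 40.6% of all annotated genes. The differences were 22.0, 35.8 and 34.1 percentage points, or 30.7 ± 7.53 (n = 3, exact sign-flip permutation p = 0.25, the smallest possible). Among genes over 1000 bp from a protein-coding start the difference was 34.8 ± 5.56. In all 3 replicates a summit was found at 115 of 188 clustered and 26 of 107 single genes. A summit between neighbours counts for each of them. When it counted only for the nearest start, the difference fell to 6.84 ± 3.07 percentage points, and with the 8188 strongest peaks to 11.9 ± 7.21.

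Chaining genes at 1000 bp gave 177 loci, of which 59.5% ± 2.90 had a summit (SD, n = 3). The share was 44.9% ± 2.47 for the 107 loci of 1 gene, 75.8% ± 3.47 for 44 loci of 2 genes and 90% ± 8.66 for 20 loci of 3 or 4 genes. All 6 loci of 5 or more genes had a summit in each replicate. A larger locus offers more bases within 500 bp of a start, and its length was not adjusted for.

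**Figure D4:**
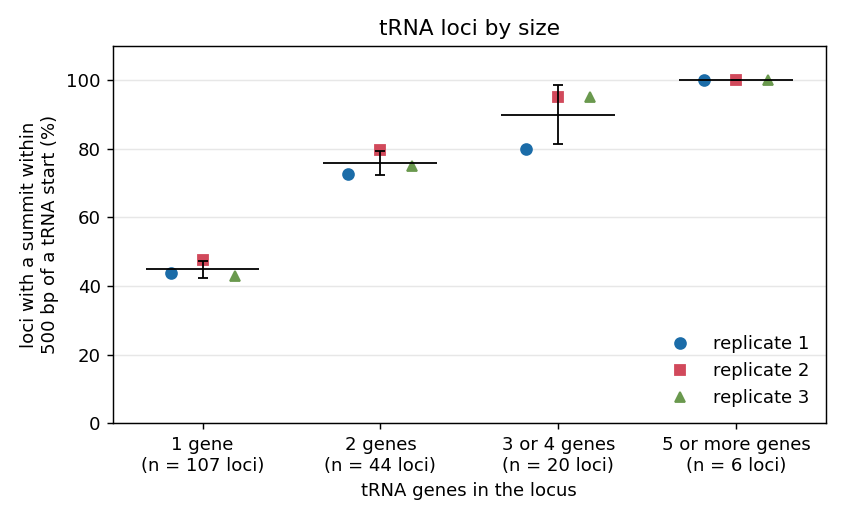
Percent of tRNA loci with a summit within 500 bp of any of their tRNA starts, by the number of tRNA genes in the locus, with 1 point per replicate, a bar at the mean and error bars of 1 SD over 3 replicates. Loci of 1 gene lie between 43.0% and 47.7%, and loci of 5 or more genes are at 100% in each replicate.

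The 4 largest loci held 7, 7, 6 and 6 genes. Isoleucine (AAT) and leucine (CAA) tRNA genes make up a locus on arm 2R from 13430282 to 13432794, all 7 of which lie inside a protein-coding gene. There 5, 7 and 7 genes had a summit in replicates 1, 2 and 3, with best ranks of 8859, 10176 and 8201. On the X, 7 genes of the arginine (TCG) and serine (CGA) groups lie from 14014814 to 14017284, and 3 of them had a summit in each replicate (best ranks 18143, 9827 and 10901). A locus of 6 cysteine (GCA) and lysine (CTT) genes on 3L, from 3095737 to 3097590 in Cht7, a chitinase gene, had 4, 5 and 4 genes with a summit. It is the only one of the 4 with an IDR summit, at rank 6673, and its best replicate ranks were 6372, 6359 and 7941. On 3R, 6 asparagine and arginine (ACG) genes from 8139533 to 8141042 had summits at 5, 6 and 5 genes, with best ranks of 11742, 11314 and 7914. All 4 loci were therefore called in every replicate, with best ranks from 6359 to 18143.

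Many tRNA genes are identical copies. The 295 genes have 100 distinct sequences, and 238 genes share theirs with at least 1 other, up to 13 copies. Genes with a shared sequence had a summit in 67.5% ± 7.57 of cases and the 57 genes with a sequence of their own in 51.5% ± 2.68, a difference of 16.0 ± 7.24 percentage points in 3 of 3 replicates (exact sign-flip permutation p = 0.25). Among single genes the shares were 52.1% and 25.3%, and among clustered genes they were 75% and 78.6%. The 29 single genes with a sequence of their own had 27.6%, 20.7% and 27.6% in replicates 1, 2 and 3. These values were below the 33.3%, 38.4% and 40.6% of all annotated genes. The sources used here do not say how reads that fit several copies were treated, and the part of that step in these shares was not tested.

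The amino acid groups are to be read against 64.4% of all tRNA genes and 33.3%, 38.4% and 40.6% of all annotated genes in the 3 replicates. Isoleucine, serine and proline genes had summits most often. Isoleucine genes had one at 10, 11 and 10 of 12 genes in replicates 1, 2 and 3 (86.1% ± 4.81), serine genes at 14, 16 and 16 of 20 (76.7% ± 5.77) and proline genes at 13, 12 and 13 of 17 (74.5% ± 3.40). The lowest were elongator methionine, with 2, 2 and 1 of 6 genes (27.8% ± 9.62), the 1 selenocysteine gene, called in replicate 1 alone, and tryptophan, with 1, 5 and 4 of 8 genes (41.7% ± 26.0). Their means were near or below the mean over all annotated genes, 37.4%. In replicates 2 and 3, however, tryptophan was above the share of all genes, at 62.5% and 50%. Of the methionine genes 1 of 6 is clustered, against 9 of 12 isoleucine genes. Histidine genes varied most among groups of more than 1 gene, with 1 of 6 in replicate 1 and 5 of 6 in each of the others. Cysteine genes were called at 3 of 7 in every list, the IDR list included, though replicate 2 called a different set of 3. In the IDR list the 3 cysteine genes share 1 summit. An IDR summit was present at 14.2% of all tRNA genes and 17.7% of all annotated genes. Leucine had the most such genes by count, 6 of 22 (27.3%), while the shares of cysteine (42.9%) and asparagine (30%) were higher. The 3 asparagine genes, like the cysteine genes, share 1 summit. Of the leucine genes, 3 share the summit of IDR rank 7902 and 2 share that of rank 7433. The isoleucine values, from 83.3% to 91.7%, did not overlap those of serine, from 70% to 80%, while serine and proline overlapped, as did tryptophan and methionine. Groups are small and share summits within clusters, and no test was made.

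**Figure D5:**
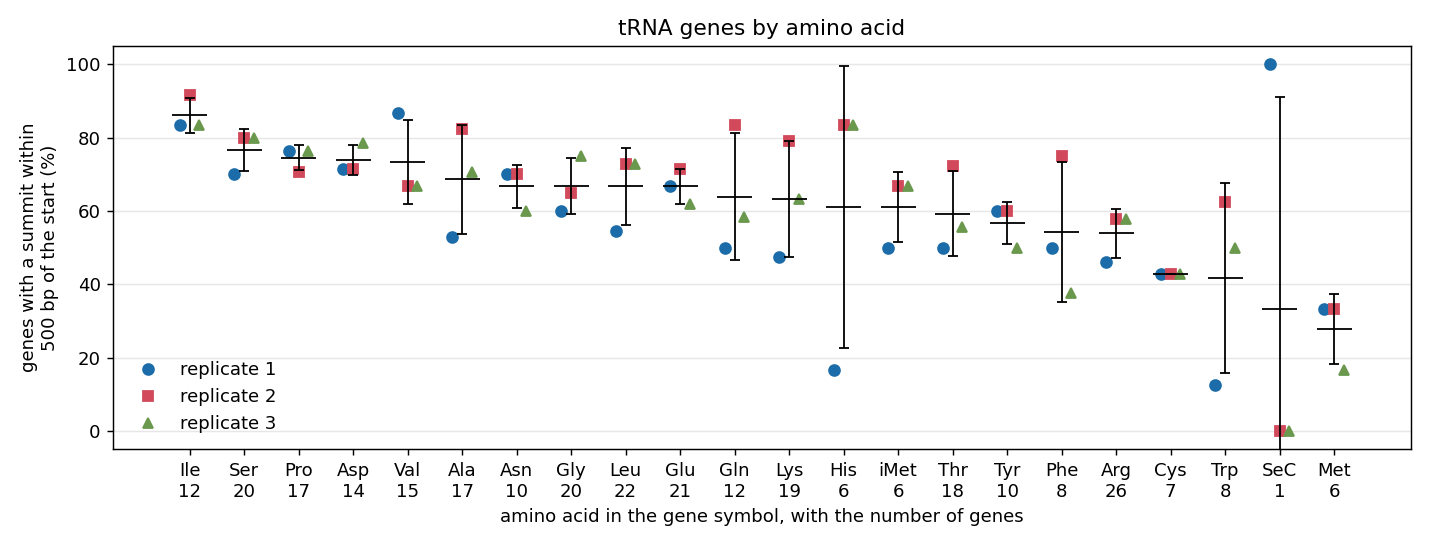
Percent of tRNA genes with a summit within 500 bp of the start by the amino acid in the gene symbol, ordered by the mean, with the number of genes under each name, 1 point per replicate, a bar at the mean and error bars of 1 SD over 3 replicates. Isoleucine is highest at 86.1% and elongator methionine lowest at 27.8%, and the histidine and tryptophan points are far apart.

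Genes of the RNA polymerase III pathway were read at any of their transcript starts. They were polymerase subunits, initiation genes, and processing and export genes. Of 31 listed names 29 matched an annotated gene, and 16, 18 and 19 of these had a summit in replicates 1, 2 and 3 (60.9% ± 5.27), against 37.8%, 43.5% and 46.4% of all 13968 protein-coding genes. In the pooled list the count was 16 (55.2%, against 37.6%), and in the IDR list 13 (44.8%, against 22.8%). By role, an IDR summit was present at 7 of 17 polymerase subunits, 2 of 5 initiation genes, 4 of 6 processing genes and 0 of 1 export gene. In the replicate lists the mean shares were 56.9% ± 6.79 for subunits, 60% ± 0 for initiation and 83.3% ± 16.7 for processing genes (SD, n = 3). The export gene had none.

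The strongest of these summits lay at a pair of initiation genes and a polymerase subunit gene. Bdp1, a TFIIIB subunit, had a summit of IDR rank 256 (replicate ranks 217, 305 and 255), 78 bp upstream of a start. Brf, the other TFIIIB-specific subunit, had IDR rank 357 (286, 534 and 341), 156 bp upstream. Among polymerase subunits, Polr3E, found in polymerase III alone, had IDR rank 312 (292, 380 and 305). Polr2H and Polr2F, shared by the nuclear polymerases, had IDR ranks 931 and 2079, and Polr1D, shared with polymerase I, had rank 4645. Of processing genes, RNaseZ, which trims the tail of the tRNA precursor, had IDR rank 1927 and Archease, a cofactor of tRNA ligation, rank 3224. The IDR summits of Polr3E, Polr2H, Polr2F and RNaseZ lay 247, 148, 40 and 102 bp upstream of a start. Those of Polr1D and Archease lay 334 and 392 bp past one, and the replicate 3 summit at Polr1D lay 249 bp upstream. Bdp1, Polr3E and Brf thus outranked all tRNA genes but tRNA:Tyr-GTA-1-8 in the IDR list. By contrast, genes with no summit in any list included Polr3A, the gene of the largest subunit, and Polr3C, Polr3I, Polr1C, Polr2L, Trf and emb.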

How the data were processed

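ChIP-seq was done on 3 biological replicates of whole embryos in 1 group. Per the text files deposited with the lists, each replicate's peaks were derived from its alignments and 1 common control, the pooled list from the 3 alignments, and the IDR list from these lists, on dm6. Aligner, read filters, peak caller and thresholds: not given in the sources used here. The lists' deposited signal values, whose scale is unstated, served only to rank peaks within a list. Read depth is unknown.

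Python 3.11.15, numpy 2.4.6 and pandas 2.3.3 were used. A summit was the interval start plus the summit offset, and 2 to 7 offsets per list that passed the end of their interval were set to its last base. Genes came from Ensembl release 115, with 5889 transposable element entries left out, and sequence from RefSeq. Shares have Wilson 95% intervals. Replicate differences were tested by an exact two-sided sign-flip permutation test, with Benjamini-Hochberg adjustment over gene classes. The counting was tested on simulated data. Alternatives were other summit distances, peak subsets, assignment rules and cluster distances, and leaving out each replicate. Members, lists and tests were chosen with earlier results of these data known. The genes named were those at the 12 strongest IDR summits, with a summit inside the gene in the IDR list or in all 3 replicates, at the 5 strongest IDR summits whose nearest start is a tRNA start, in the 4 largest loci, in the 3 highest and 3 lowest amino acid groups, and the 8 strongest polymerase III pathway genes; others were named after their values were seen.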

Additional observations from a re-analysis of the deposited data

How the results depend on the processing

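The share of tRNA genes with a summit, 64.4% in the whole replicate lists, was 49.5% within 250 bp and 74.1% within 1000 bp. It was 17.9% with the 8188 strongest peaks, 42.7% with the upper 15000, 46.1% when a summit counted only for its nearest start and 51.5% for genes with a sequence of their own. The excess over other genes, 27.4 percentage points, reversed to -1.38 with the 8188 strongest peaks and stayed positive under the 12 other settings. The lowest of these were 14.5 for genes with a sequence of their own and 14.9 with the upper 15000 peaks. It was 17.7 by nearest start only, 18.5 by the nearest base of the gene, 22.5 by locus and 34.4 with transposable element entries among the other genes. The cause of the reversal was not tested. The excess of clustered over single genes, 30.7, was positive under all 12 settings run. It ranged from 6.84 by nearest start only to 53.3 for genes with a sequence of their own. The share of summits with a protein-coding start nearer, 4.48%, was 1.23% within 250 bp, 9.94% within 1000 bp, 13.7% and 7.45% with the strongest 8188 and 15000 peaks, and 0 for genes with a sequence of their own. The share upstream, 42.5%, was 44.8% within 1000 bp, 46.5% with the strongest 8188 peaks, 39.0% by the nearest base of the gene and 51.3% for genes with a sequence of their own. The IDR share, 14.2%, was 8.81% within 250 bp, 21.0% within 1000 bp, 3.73% in the upper 4094 peaks, 7.12% by nearest start only and 63.1% in the pooled list. Leaving out each replicate gave 61.4% to 67.6% for the tRNA share, 24.8 to 28.9 for the excess over other genes, 28.1 to 35.0 for clustered over single, 4.05% to 5.12% for a nearer protein-coding start and 41.4% to 43.1% for upstream, and 2 replicates cannot give a p under 0.5. The settings with transposable element entries and without pseudogenes were chosen after seeing the data. Gene groups were compared within each replicate, and no comparison between sample groups was possible because the study has 1 group.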

Other observations

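By chromosome arm, the share of tRNA genes with a summit was 70.3% ± 13.6 for 100 genes on 2R, 67.5% ± 6.14 for 41 on 2L, 65.8% ± 2.53 for 79 on 3R, 59.2% ± 4.08 for 49 on 3L and 42.3% ± 3.85 for 26 on the X (SD, n = 3). Over all annotated genes on these arms the shares were 36.9%, 36.3%, 37.8%, 39.3% and 38.7% in the same order. On the X the tRNA share was thus near that of all genes, with 42.3%, 38.5% and 46.2% in replicates 1, 2 and 3 against 31.9%, 41.8% and 42.4%, and the arms were not tested against each other. The 16 tRNA genes with an intron had a summit at 10 genes in each replicate, and the 5 pseudogenes at 2. The median GC content of the tRNA genes was 58.3%. The 100 bp on either side of tRNA summits had medians of 39.3%, 38.3% and 38.8% in replicates 1, 2 and 3, against 37.3% around all summits of each list.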
